A study of Mus musculus with 37 samples.

Results

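Nobox, Figla, Sohlh1, Sohlh2, Lhx8, Taf4b, Foxo3, Tbpl2 and Gcm1 are 9 genes for transcription factors, most of them known for driving the formation and growth of the mouse oocyte before its transcription stops. They were chosen by gene symbol, and they are 9 of the 54752 genes in the deposited tables of the series. The study sequenced the RNA of 37 single oocytes at 3 stages of meiotic maturation, in 2 batches. All oocytes came from C57BL/6 females aged 6 to 8 weeks that had been given PMSG, a gonadotrophin that makes follicles grow. Oocytes at the germinal vesicle (GV) stage, arrested in prophase of the first meiotic division, were collected from ovaries 48 h after PMSG. Metaphase I (MI) oocytes were GV oocytes kept in M16 medium for 8 h. Metaphase II (MII) oocytes, the mature eggs, were taken from the ampulla of the oviduct 15 h after hCG, the hormone that triggers ovulation. The zona pellucida and the polar body were removed, and every oocyte gave 1 Smart-seq2 library. Batch A held 6 GV and 6 MII oocytes, and batch B held 10 GV and 15 MI oocytes, so MI and MII oocytes never shared a batch. MI oocytes had matured in culture and MII oocytes in the animal, which cannot be told apart from the stage. The animals of origin were not used here, because the labels do not tie oocytes to them, so the p-values measure only the spread between these oocytes.

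As background, NOBOX, LHX8, FIGLA, SOHLH1 and SOHLH2 form a network of germ cell regulators that switches on oocyte genes while primordial follicles form and begin to grow. FOXO3 keeps primordial follicles dormant until PI3K signalling sends it out of the nucleus, while TAF4B and TBPL2 belong to the general transcription machinery of the growing oocyte. Transcription falls silent at the end of growth, and during maturation the oocyte depends on stored mRNA, which is translated or removed.

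Expected counts assigned to genes ranged from 7509875 to 12648629 per GV oocyte and from 9930485 to 13988444 per MII oocyte of batch A. In batch B they ranged from 7184205 to 17724506 per GV oocyte and from 2709280 to 19390128 per MI oocyte, with MI oocyte 15 the lowest. MII oocyte 1 stood apart with 29816 genes at 1 count or more, where the median MII oocyte had 20599. Levels are given as normalised CPM (counts scaled to the library size, with TMM within a batch) for a gene across oocytes, and as TPM, which also corrects for transcript length, between genes. The threshold for calling a gene was an adjusted p under 0.05 (edgeR's quasi-likelihood test, Benjamini-Hochberg) together with a fold change over 2. Of the 9 genes, 7 passed the filter on low counts in each batch, and Sohlh1 and Gcm1 did not.

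The libraries carried the RNA of oocytes by their markers. All 8 oocyte markers (Zp3, Gdf9, Bmp15, Ddx4, Dppa3, Nlrp5, Ooep and Oosp1) were detected in each group, and their summed level had a median of 9837 CPM at GV and 6676 CPM at MII in batch A, and of 3837 CPM at GV and 3392 CPM at MI in batch B. Gdf9, a growth factor that oocytes secrete, was the most abundant of them in every group. The 14 markers of granulosa and cumulus cells, which surround the oocyte, summed to 30.6 to 59.8 CPM at GV and 35.3 to 48.4 CPM at MII in batch A, and to 28.3 to 64.4 CPM at GV and 26.8 to 79.3 CPM at MI in batch B. Cyp19a1 was the most abundant of these in both GV groups and at MII, and Nr5a2 at MI. Foxl2, Amh, Amhr2 and Ptx3 had 0 counts in every oocyte of batch B, and Amhr2 and Ptx3 had 0 in every GV oocyte of batch A. Of the 14, 3 passed the filter in batch A, with 0 called by edgeR. At an unadjusted p under 0.05 there were 0 of the 3, beside 4441 of all 12929 genes. In batch B 6 passed. Among those that did not pass in batch A, Ccnd2 had counts in 6 of 6 GV oocytes, with up to 9.34 CPM in GV oocyte 2, and in 1 of 6 MII oocytes, Inha in 6 of 6 and 2 of 6, and Fshr in 5 of 6 and 1 of 6. Inhba and Gja1 had counts in 6 of 6 oocytes of either stage, and Has2 in 6 of 6 and 5 of 6. Foxl2 had them in 3 of 6 and 2 of 6, Tnfaip6 in 2 of 6 of either stage and Amh in 1 of 6 of either stage. Ptx3 and Amhr2 went the other way, from 0 of 6 GV oocytes to 2 of 6 and 1 of 6 MII oocytes. In batch B, 2 of the 6 were called, beside 0.121% of all genes, and 3 of the 6 had a log2 fold change above 0, up to 1.21. The called ones, Ccnd2 and Gja1, fell from GV to MI (log2 fold change −3.69 and −3.42, adjusted p = 0.0174 for each by edgeR's quasi-likelihood test), though on HTSeq counts, with −2.22 and −3.27, neither passed the correction (adjusted p = 0.528 and 0.263), and without MI oocyte 7 Ccnd2 had an adjusted p of 0.0532.

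Per length and by median, Nobox was the most abundant of the 9 mRNAs in each group and Sohlh1 and Gcm1 the least. In the GV oocytes of batch A the median level of Nobox was 372 TPM (range 294 to 501), which placed it 238th among the 21375 genes with a median above 0. Lhx8 followed with 173 TPM, then Figla with 65.8 and Foxo3 with 64.2, then Taf4b with 7.77, Tbpl2 with 5.26 and Sohlh2 with 3.87. Figla and Foxo3 did not differ beyond their spread, since Figla was the higher of them in 3 of 6 oocytes, and neither did Taf4b and Tbpl2, with 3 of 6. On HTSeq counts Tbpl2 had a median of 10 TPM there and stood above Taf4b (9.96 TPM) in 5 of 6 oocytes, so the order of these genes depends on the counting. The ranges of Nobox and Lhx8, of Foxo3 and Taf4b, and of Sohlh2 and Gcm1 did not overlap.

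At MII in batch A the order of the leading genes differed in that Foxo3 stood above Figla. Nobox had a median of 208 TPM, Lhx8 140, Foxo3 73.7 and Figla 28.8, with Foxo3 above Figla in 6 of 6 oocytes and no overlap between them, but in 5 of 6 and with overlap on HTSeq counts. Tbpl2 (7.87 TPM), Taf4b (7.68) and Sohlh2 (5.74) lay close together and overlapped. In GV oocytes of batch B, Nobox had 103 TPM, and Lhx8 (55.5), Figla (50.3) and Foxo3 (44.8) overlapped, with Lhx8 above Figla in 4 of 10 oocytes. The MI oocytes showed the same 4 leading genes, with Nobox at 99.3 TPM above Figla at 47.5 in 15 of 15 oocytes, and with Foxo3 (45.6) and Lhx8 (43.3) not set apart from Figla. In MI oocyte 6 Foxo3 was above Nobox, with 64.5 against 60.3 TPM. Below them stood Tbpl2 with 9.03 TPM at GV and 4.08 at MI, Taf4b with 2.47 and 2.68, and Sohlh2 with 1.45 and 0.883.

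**Figure D1:**
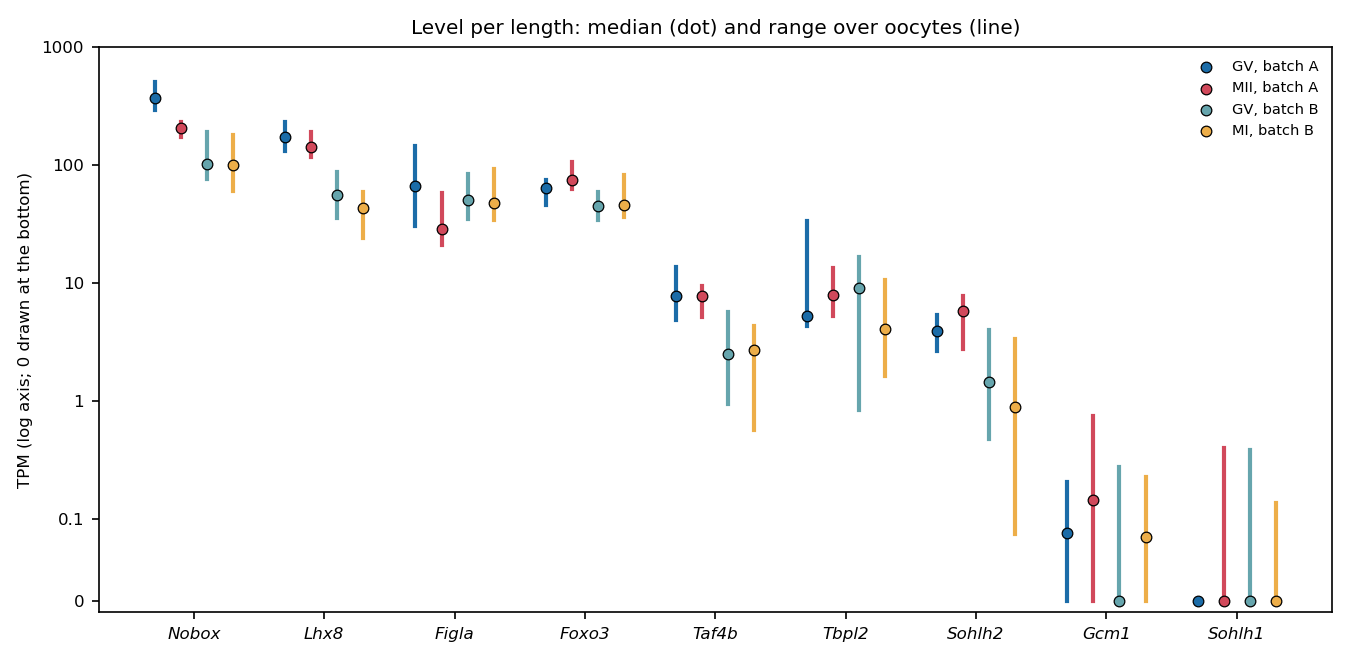
Level of each of the 9 mRNAs per length, in TPM on a log axis, with a dot for the median and a line for the range over the oocytes of each group (6 GV and 6 MII in batch A, 10 GV and 15 MI in batch B); values of 0 are drawn at the bottom. Nobox has the highest median in each group, at 372, 208, 103 and 99.3 TPM, and Sohlh1 lies at or near 0.

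Between GV and MII in batch A, Figla mRNA fell, Nobox mRNA was lower in every MII oocyte than in any GV oocyte, by less than 2-fold with TMM and by more with spike-in size factors, and Foxo3 mRNA was higher at MII, also by less than 2-fold and with a direction that turned under spike-in size factors. The comparison asks what becomes of these mRNAs over the whole of maturation. Figla was the only one called, which is 1 of the 7 genes tested beside 1095 of all 12929 genes (8.47%). That call was lost without GV oocyte 2 or GV oocyte 5 (adjusted p = 0.0524 and 0.0553). At the adjusted p alone Nobox and Foxo3 passed as well, 3 of the 7 beside 20.6% of all genes, though Nobox did not in the fit of all 37 oocytes with stage and batch as terms (0.0675) and Foxo3 did not in 6 of the 12 fits with an oocyte left out (0.0601 to 0.0878). The groups did not overlap for 1 of the 7 genes that was lower at MII, Nobox, beside 5.71% of all genes, and for 0 that were higher, beside 4.08%.

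Between GV and MI in batch B, which covers the first part of maturation, edgeR's quasi-likelihood test called 0 of the same 7 genes, beside 15 of all 12419 genes (0.121%). At an unadjusted p under 0.05 there was 1 of the 7, Tbpl2, and 1371 of all genes, and DESeq2 called 0 of the 7 and 116 genes. The count of 15 depended on single oocytes. It was 5 to 8 when any of GV oocytes 1 to 8 or of MI oocytes 2, 3, 4, 8, 11 and 13 was left out, 2 without GV oocyte 9, 0 without MI oocyte 7 and 82 without MI oocyte 9, while that of the 7 genes was 0 in each of these 25 fits.

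Whether the change to MII differed from the change to MI, each against the GV oocytes of its own batch, was tested across all 37 oocytes. This test called 0 of the 7 genes, beside 608 of 15083 genes (4.03%), and the latter number was 357 without MII oocyte 1. At an unadjusted p under 0.05 there were 3 of the 7 (Figla, Foxo3 and Nobox) and 2671 of all genes, and no other tool was run on this contrast. So for none of the 7 was the change to MII shown to differ from the change to MI.

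**Figure D2:**
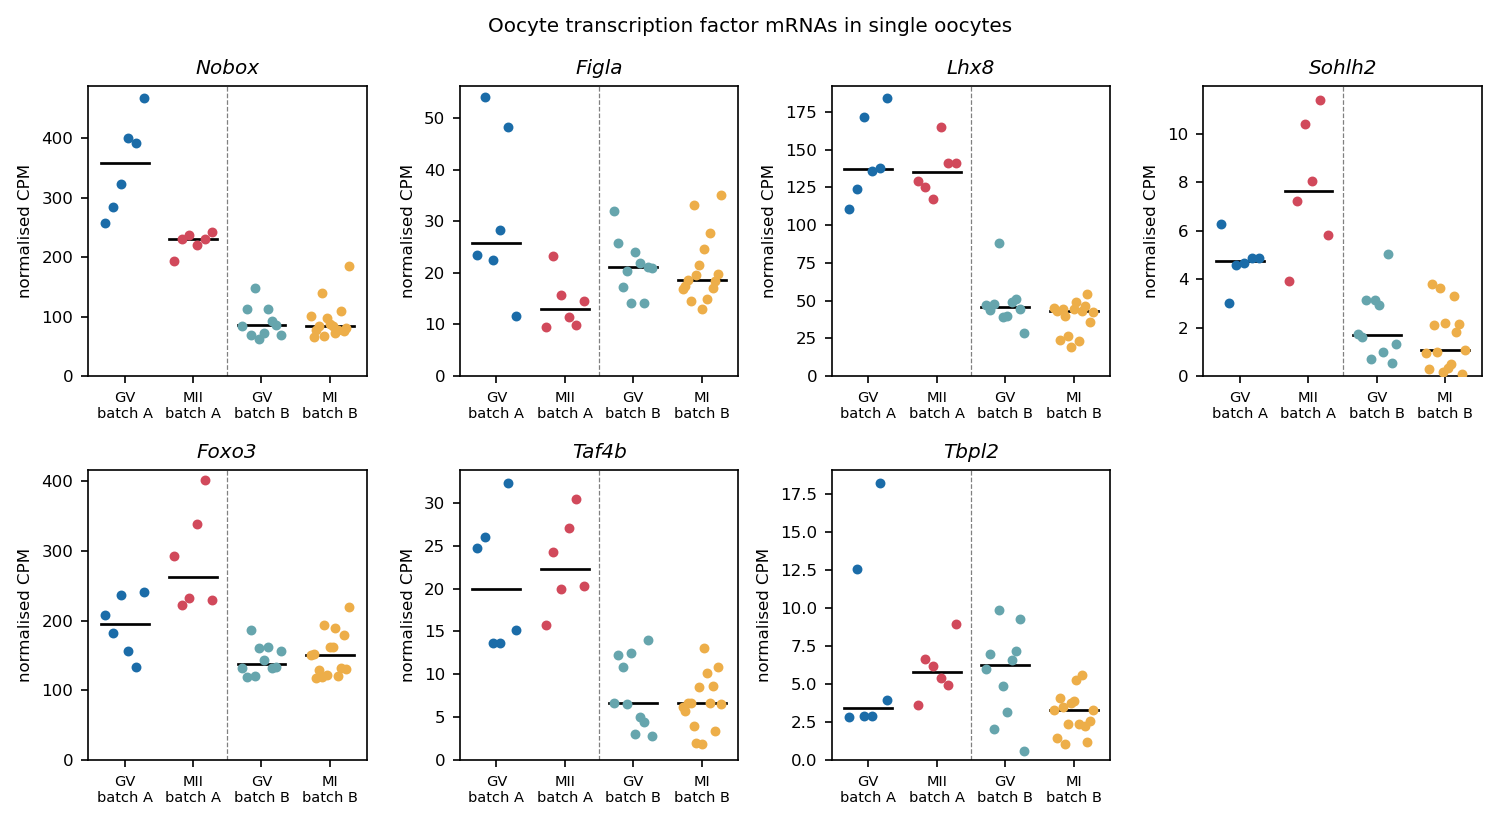
Normalised CPM of the 7 genes that passed the filter, with a point for each oocyte and a bar for the median of each group; the dashed line parts the batches, which were normalised separately, and each axis starts at 0. The 6 MII values of Nobox (194 to 242 CPM) lie below its 6 GV values of batch A (257 to 468 CPM), and GV oocytes 2 and 5 of batch A stand high for Figla and Tbpl2.

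Nobox encodes a homeobox factor that primordial follicles need in order to grow (ENSMUSG00000029736.15, chromosome 6, 43303674 to 43309554, minus strand, GRCm38). Its mRNA was at 257 to 468 CPM (median 358) in the 6 GV oocytes of batch A and at 194 to 242 CPM (median 230) in the 6 MII oocytes. GV oocytes 6 and 4 were the highest, with 468 and 401 CPM, and the lowest GV oocyte stood above the highest MII oocyte, so the groups were apart. The spread was also smaller at MII, with an SD of 17.3 CPM against 79.8 CPM at GV, a difference that was not tested. Its log2 fold change was −0.65 (SE 0.15), or 1.57-fold lower between the groups, with an adjusted p of 0.00586 that did not exceed 0.0165 with any of the 12 oocytes left out. With spike-in size factors the log2 fold change was −1.36 (adjusted p = 6.5e-05), past the 2-fold threshold. The adjusted p was 0.0675 in the fit of all 37 oocytes with stage and batch as terms, within a range of 6.5e-05 to 0.0675 over the alternatives.

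In batch B, Nobox mRNA was at 63.0 to 149 CPM (median 85.4) in the GV oocytes and at 65.2 to 186 CPM (median 83.4) in the MI oocytes. The groups overlapped almost wholly, and the highest values were in MI oocyte 15, the shallowest library, and GV oocyte 4. This gave a log2 fold change of 0.04 with a 95% interval of −0.28 to 0.36, so a change of the size seen at MII lay outside the interval. The difference between both stage effects was −0.62 (SE 0.26, p = 0.0202), with an adjusted p of 0.171.

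Lhx8, a LIM homeobox gene that acts in the same early network (ENSMUSG00000096225.7, chromosome 3, 154306294 to 154330659, minus strand), had alike medians at GV and MII in batch A with TMM, and was lower at MII with spike-in size factors, by less than 2-fold. Its mRNA was at 111 to 184 CPM (median 137) in GV oocytes and at 117 to 165 CPM (median 135) in MII oocytes. The groups overlapped, with 3 of 6 MII oocytes on either side of the GV median. The log2 fold change was −0.08 (95% interval −0.36 to 0.20, adjusted p = 0.734), and its sign turned on HTSeq counts (0.06). A change of 2-fold lay outside this interval with TMM, while spike-in size factors gave −0.80 (adjusted p = 0.0108).

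In batch B, Lhx8 mRNA was at 28.6 to 88.4 CPM (median 45.8) in GV oocytes and at 19.5 to 54.6 CPM (median 43.1) in MI oocytes. GV oocyte 4 was high and 4 MI oocytes lay below every GV oocyte, and 12 of 15 MI oocytes were below the GV median. In the fit Lhx8 was at −0.30 on the log2 scale (SE 0.17, adjusted p = 0.532), and −0.16 without GV oocyte 4. The difference between the stage effects was 0.29 (adjusted p = 0.643).

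Figla encodes a basic helix-loop-helix factor that is needed for primordial follicles to form and that acts on zona pellucida genes (ENSMUSG00000030001.4, chromosome 6, 86016171 to 86020996, plus strand). Its mRNA was at 11.6 to 54.0 CPM (median 25.9) in the GV oocytes of batch A and at 9.58 to 23.3 CPM (median 13.0) in the MII oocytes. GV oocytes 2 and 5 were far above the rest with 54.0 and 48.2 CPM, and the other GV oocytes had at most 28.3 CPM. The groups overlapped through GV oocyte 6 with 11.6 CPM and MII oocyte 2 with 23.3 CPM, but 6 of 6 MII oocytes were below the GV median and 4 of 6 GV oocytes were above every MII oocyte. The log2 fold change was −1.16 (SE 0.33), or 2.23-fold lower, with an adjusted p of 0.0199. The call was lost without GV oocyte 2 (log2 fold change −0.93, adjusted p = 0.0524) and without GV oocyte 5 (−0.99, adjusted p = 0.0553), and it held without each of the other 10 oocytes and under the 8 other settings tried (adjusted p 5.76e-05 to 0.0355).

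The GV oocytes with the most Figla mRNA also had the most RNA of the marker lists. The granulosa and cumulus markers summed to 59.8 CPM in GV oocyte 5 and 49.3 CPM in GV oocyte 2, though GV oocyte 4, with 28.3 CPM of Figla, had 48.8 CPM of them. The oocyte markers summed to 13202 and 12211 CPM in GV oocytes 5 and 2, which were the highest sums of that group as well. Figla and the summed granulosa markers were compared with the mean of each group taken off. Over the 12 oocytes of batch A the Pearson r was 0.822 (Spearman 0.678), and 0.611 without the 2 farthest oocytes. Over the 25 oocytes of batch B it was 0.238 (Spearman 0.121), and −0.0329 without the 2 farthest. Over all 37 oocytes r was 0.396 (Spearman 0.268). Over the 16 GV oocytes of both batches it was 0.667 (Spearman 0.632), and 0.729 without the 2 farthest. For Taf4b and these markers r was 0.61 in batch A (Spearman 0.531, 0.397 without the 2 farthest) and −0.102 in batch B (0.0162 without the 2 farthest). These values come from shared libraries, and the part of such RNA in the fall of Figla was not tested.

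In batch B, Figla mRNA was at 14.1 to 32.0 CPM (median 21.1) in GV oocytes and at 13.0 to 35.0 CPM (median 18.7) in MI oocytes. The groups covered the same range, with 5 of 15 MI oocytes above the GV median. Its fitted change was −0.03 on the log2 scale (95% interval −0.38 to 0.32), so that a 2-fold fall lay outside it. The difference between the stage effects was −1.04 (SE 0.35, p = 0.0046), with an adjusted p of 0.0692, and −0.92 (adjusted p = 0.157) without MII oocyte 1.

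Sohlh1 and Sohlh2 encode related basic helix-loop-helix factors of the early germ line, which stand upstream of much of the network. Sohlh1 (ENSMUSG00000059625.6, chromosome 2, 25842995 to 25847248, minus strand) was at 0 RSEM counts in 6 of 6 GV oocytes of batch A. In those oocytes a count of 0 allows up to 0.399 CPM at most, for counting error only, since PCR reads without molecular identifiers are not independent molecules. The other oocytes with any count were MII oocytes 1 and 5 with 3 counts each, GV oocyte 3 of batch B with 3, and MI oocytes 11 and 12 with 1 each. Its mRNA thus had no RSEM count in 32 of 37 oocytes. HTSeq also counted 1 read in GV oocyte 5 of batch A and 2 in MII oocyte 6, and no fold change is given.

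Sohlh2 (ENSMUSG00000027794.4, chromosome 3, 55182028 to 55209957, plus strand) was low, with 1 or more RSEM counts in every oocyte, though HTSeq had 0 counts in MI oocyte 9 where RSEM had 4. The ratio of HTSeq to RSEM counts over genes was 1.07 in that library, and 1.13 and 1.11 in MI oocytes 4 and 8, against 1.98 to 2.2 in the others, and the cause was not tested. It was at 3.03 to 6.28 CPM (median 4.75) in GV oocytes and at 3.92 to 11.4 CPM (median 7.62) in MII oocytes of batch A. MII oocytes 5 and 3 were the highest, with 11.4 and 10.4 CPM, and the groups overlapped, with 5 of 6 MII oocytes above the GV median. The log2 fold change was 0.73 (SE 0.28) with an adjusted p of 0.0732 that misses the threshold (0.0412 by DESeq2, 0.0316 without MII oocyte 1), and the direction turned to −0.04 with spike-in size factors.

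In batch B, Sohlh2 mRNA was at 0.541 to 5.04 CPM (median 1.68) in GV oocytes and at 0.0861 to 3.81 CPM (median 1.09) in MI oocytes. The lowest of these values stands for 1 count, in MI oocyte 14, and the ranges overlapped. MI differed from GV by −0.43 on the log2 scale (SE 0.51, adjusted p = 0.83), and the difference between the stage effects was 1.24 (SE 0.74, adjusted p = 0.406).

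Foxo3, the forkhead gene behind follicle dormancy (ENSMUSG00000048756.11, chromosome 10, 42181841 to 42276755, minus strand), was at 133 to 241 CPM (median 195) in GV oocytes and at 222 to 402 CPM (median 263) in MII oocytes of batch A. MII oocytes 5, 4 and 1 were above every GV oocyte, while the other MII oocytes overlapped with the 2 highest GV oocytes, and 6 of 6 MII oocytes were above the GV median. In batch A Foxo3 and Lhx8 tended to be higher in the deeper libraries of a stage, though not in every oocyte. Foxo3 was highest in the 2 deepest libraries of each stage, MII oocytes 5 and 4 and GV oocytes 3 and 6. But GV oocyte 1, the shallowest GV library, had more Foxo3 (208 CPM) than GV oocytes 2, 4 and 5. For Foxo3 there was a Pearson r of 0.715 with depth within groups (Spearman 0.727, 0.554 without the 2 farthest of the 12). With the summed granulosa markers it was −0.616 (Spearman −0.608, −0.374 without the 2 farthest). For Lhx8 and depth r was 0.767 in batch A (Spearman 0.622, 0.763 without the 2 farthest) and −0.326 in batch B. For Foxo3 batch B gave −0.439 with depth and 0.534 with the markers (−0.305 and 0.36 without the 2 farthest). All 37 oocytes gave −0.177 and 0.20, which turned to 0.109 and −0.00602 without the 2 farthest. The part of depth or of these markers in the change was not tested. The log2 fold change was 0.57 (SE 0.18), or 1.48-fold higher, with an adjusted p of 0.0371, and the direction turned to −0.17 (adjusted p = 0.6) with spike-in size factors. The adjusted p rose over 0.05 when GV oocyte 2, 4 or 5 or MII oocyte 1, 4 or 5 was left out (0.0601 to 0.0878).

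Spike-in size factors assume that each oocyte received the same amount of foreign RNA, which was not tested, and they could be used in batch A only. With them the median log2 fold change of all genes was −0.72, against 0.01 with TMM. Relative to that median, Foxo3 was at 0.54, Sohlh2 at 0.68, Taf4b at 0.06, Lhx8 at −0.08, Tbpl2 at −0.38, Nobox at −0.64 and Figla at −1.18. Such relative values hardly depend on the scaling, since size factors shift all genes of an oocyte alike. The direction per oocyte did depend on it for Foxo3, Sohlh2 and Taf4b. In batch B spike-in sequences had at most 32 counts in any oocyte, so the same could not be asked there.

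In batch B, Foxo3 mRNA was at 119 to 186 CPM (median 138) in GV oocytes and at 118 to 220 CPM (median 150) in MI oocytes. The highest was MI oocyte 15, and the ranges overlapped with 8 of 15 MI oocytes above the GV median. Between the stages the log2 fold change came to 0.07 (95% interval −0.16 to 0.30), and the difference between the stage effects was 0.56 (SE 0.21, p = 0.0129, adjusted p = 0.133).

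Taf4b encodes a germ cell form of a TFIID subunit (ENSMUSG00000054321.7, chromosome 18, 14783245 to 14900359, plus strand). Its mRNA was at 13.6 to 32.3 CPM (median 19.9) in GV oocytes and at 15.8 to 30.4 CPM (median 22.2) in MII oocytes of batch A. The GV oocytes fell into 3 at 24.7 CPM or more (oocytes 5, 2 and 1) and 3 at 15.2 CPM or less, and the MII oocytes lay within the range of the GV oocytes, with MII oocytes 5 and 4 (30.4 and 27.1 CPM) among the higher of them. MII differed from GV by 0.14 on the log2 scale (95% interval −0.34 to 0.61, adjusted p = 0.731), and −0.66 (adjusted p = 0.112) with spike-in size factors. In batch B it was at 2.77 to 14.0 CPM (median 6.59) in GV oocytes and at 1.89 to 13.1 CPM (median 6.63) in MI oocytes, which overlapped throughout (log2 fold change −0.21, SE 0.31, adjusted p = 0.872). The difference between the stage effects was 0.43 (adjusted p = 0.724).

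Tbpl2 encodes a TBP relative that works at promoters of the growing oocyte (ENSMUSG00000061809.8, chromosome 2, 24071721 to 24096595, minus strand). Its mRNA was at 2.83 to 18.2 CPM (median 3.40) in GV oocytes and at 3.61 to 8.98 CPM (median 5.77) in MII oocytes of batch A. GV oocytes 5 and 2 stood out with 18.2 and 12.6 CPM, the same 2 oocytes that were high in Figla, and the other 4 had at most 3.92 CPM. As a result 6 of 6 MII oocytes were above the GV median although the fitted log2 fold change was −0.29 (SE 0.46, adjusted p = 0.702), and it turned to 0.23 without GV oocyte 5. With spike-in size factors it was −1.10 (adjusted p = 0.0643), and no scaling gave a change that passed the test.

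In batch B, Tbpl2 mRNA was at 0.567 to 9.90 CPM (median 6.27) in GV oocytes and at 1.06 to 5.6 CPM (median 3.27) in MI oocytes. All 15 MI oocytes were below the GV median and 6 of 10 GV oocytes were above every MI oocyte, but GV oocyte 10, with 0.567 CPM, was below every MI oocyte. The log2 fold change was −0.88 (SE 0.35, p = 0.0172), which failed the correction with an adjusted p of 0.317, and single oocytes moved it between −1.03 and −0.76. The difference between the stage effects was 0.69 (SE 0.61, p = 0.259), which did not pass even before the correction.

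Gcm1, best known as a factor of the placenta (ENSMUSG00000023333.8, chromosome 9, 78051924 to 78065624, plus strand), was near the limit of detection. It had 0 to 2 RSEM counts in GV oocytes and 0 to 9 counts in MII oocytes of batch A, with 9 in MII oocyte 1, and 0 to 5 and 0 to 3 counts in GV and MI oocytes of batch B. The sums over the oocytes of these groups were 6, 18, 9 and 16 counts. On HTSeq counts the oocytes had 0 to 1, 0 to 6, 0 to 7 and 0 to 2 counts, with medians of 0, 0, 2 and 0, so no order of the stages can be read from them. Per length, Gcm1 stood above its relative Gcm2 in 2 of 15 MI oocytes and in 0 oocytes of each other group. Gcm2 had medians of 4.15 TPM at GV and 3.86 TPM at MII in batch A.

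The transcript table names 22 transcripts of the 9 genes. In batch A, 15 of them passed the filter and 0 were called by edgeR's quasi-likelihood test, beside 1252 of 22461 transcripts (5.57%). At an unadjusted p under 0.05 there were 8 of the 15 and 5438 of all. The smallest adjusted p belonged to Nobox-201 (log2 fold change −0.66, adjusted p = 0.0152), then to Foxo3-204 (0.96, adjusted p = 0.0300), and Figla-201 had −1.17 with an adjusted p of 0.0536. In batch B, 13 passed and 0 were called, beside 0 of 22717 (0.0%), with 0 of the 13 and 1615 of all at an unadjusted p under 0.05. No other tool was run on transcripts.

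The share of each transcript within its gene was tested with edgeR's diffSpliceDGE. Between GV and MII it called 0 of the 12 transcripts that could be tested, beside 344 of 15586 (2.21%), and their smallest unadjusted p was 0.149 where 1298 of all were under 0.05. Between GV and MI it called 0 of 10, beside 0 of 16502 (0.0%). At an unadjusted p under 0.05 there were 1 of the 10, Nobox-202 with a p of 0.0306, and 554 of all.

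Nobox counts came mostly from the full-length Nobox-201, whose 9 exons code for the protein. Its share was 92.5% to 97.3% (median 95.2%) at GV and 95.1% to 97.6% (median 96.4%) at MII in batch A, and 64.9% to 83.9% (median 77.0%) at GV and 58.6% to 93.3% (median 80.2%) at MI in batch B. What Nobox-201 lacked in batch B lay mainly in Nobox-203, a transcript without a coding sequence of 920 bases in 3 exons at the 3′ end of the gene (43303700 to 43305135). The share of Nobox-203 was at most 5.32% in GV oocytes of batch A and at least 8.28% in GV oocytes of batch B, with medians of 0.6% and 18.9%. These groups of the same stage did not overlap, and the difference between the batches was not tested. Their reads overlap those of Nobox-201, so RSEM's division between both transcripts is an estimate.

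For Lhx8, 3 coding transcripts shared the counts. Lhx8-201 had medians of 60.6% at GV and 56.2% at MII in batch A and of 46.9% at GV and 48.4% at MI in batch B, Lhx8-205 had 27.7%, 29.0%, 39.7% and 42.0%, and Lhx8-204 had 13.4%, 13.2%, 11.3% and 7.31%. Single oocytes of batch B strayed far, with Lhx8-201 at 10.2% in MI oocyte 6. Foxo3 was carried by Foxo3-203, the form with the longest annotated sequence (6848 bases), with medians from 92.3% to 95.1% in the 4 groups, and Foxo3-204 had 4.35% and 5.81% at GV and MII of batch A and 5.68% and 7.12% at GV and MI of batch B. Tbpl2-202 had 53.2% and 66.3% in batch A and 78.3% and 75.5% in batch B, from few counts. Figla-201 held nearly all Figla counts, with medians of 99.3% or more. RSEM assigned all Taf4b counts to Taf4b-202 (5134 bases) and 0 to Taf4b-201 (5149 bases). Both have 15 exons and the same start and end, so only reads over the part in which they differ can tell them apart. Those reads were not looked at here.

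**Figure D3:**
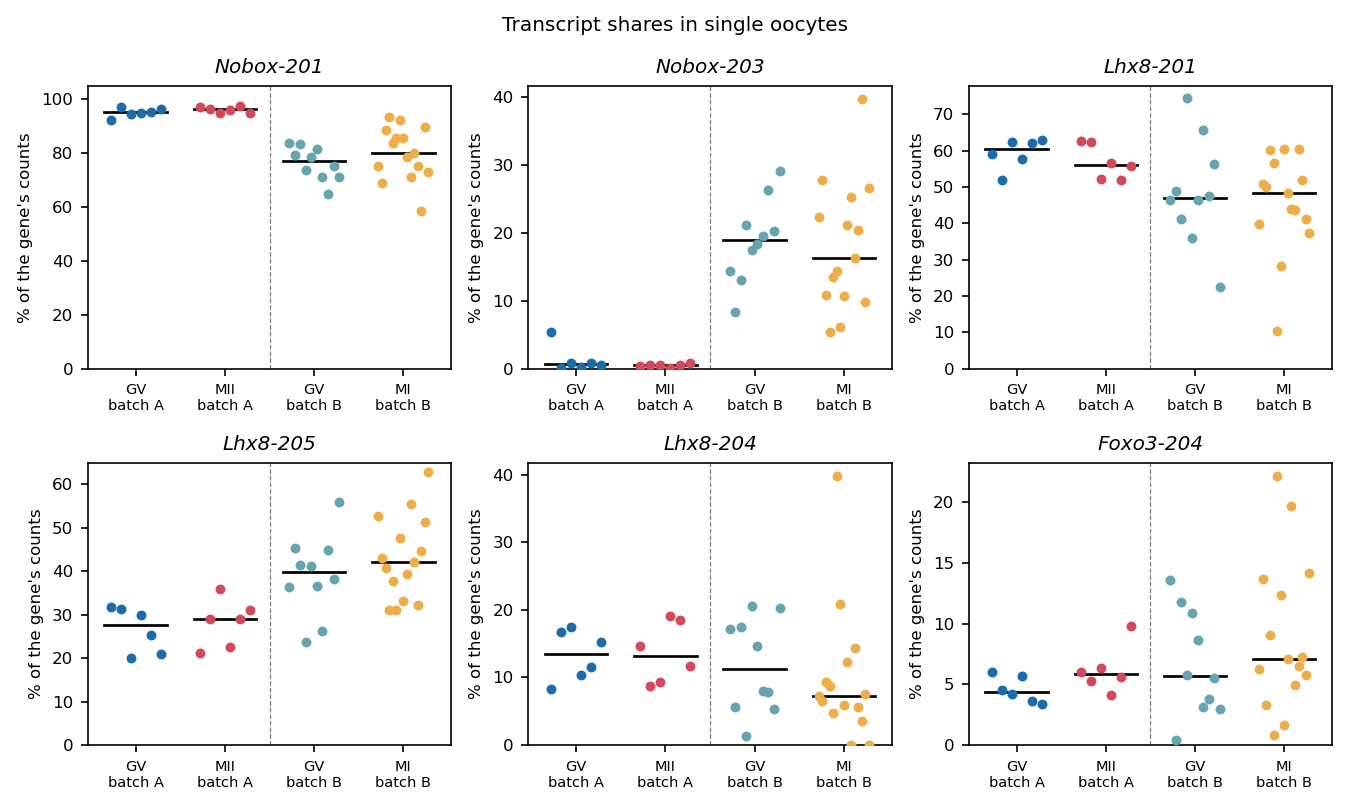
Share of single transcripts in the counts of their gene, in percent, with a point for each oocyte and a bar for the median of each group; the dashed line parts the batches. Nobox-203 stays at or under 5.32% in batch A and has medians of 18.9% at GV and 16.2% at MI in batch B, while the stages of a batch overlap for each transcript drawn.

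Pairs of the 7 mRNAs varied together to different degrees, in either direction. With the mean of each group taken off log2(CPM + 1), the 21 pairs had a Pearson r from −0.426 to 0.43 over the 37 oocytes, with a median of −0.02 and 10 pairs above 0. The highest was Taf4b with Tbpl2 (Spearman 0.369, 0.519 without the 2 farthest oocytes, 0.654 in batch A and 0.38 in batch B). The lowest was Foxo3 with Tbpl2 (Spearman −0.436, −0.482 without the 2 farthest, −0.566 in batch A). Nobox and Lhx8 had 0.427, which was 0.559 in batch A and 0.408 in batch B, and without the 2 farthest it was 0.308, and 0.0153 in batch A. The lowest pair of batch A was Figla with Foxo3 at −0.737 (Spearman −0.783, −0.841 without the 2 farthest), which had −0.419 over the 37 oocytes and −0.12 in batch B. Figla and Tbpl2 had 0.723 over the 12 oocytes of batch A (Spearman 0.72, 0.742 without the 2 farthest), where GV oocytes 2 and 5 were high in both, and 0.0347 over the 25 oocytes of batch B. Over the 16 GV oocytes of both batches the pairs ran from −0.63 for Foxo3 with Tbpl2 (Spearman −0.544, −0.454 without the 2 farthest) to 0.757 for Nobox with Lhx8 (Spearman 0.65, 0.515 without the 2 farthest), with 8 of 21 above 0. The points of a pair share the library, its depth and the scaling, and no p is given.

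The genes of most alike pattern were also sought among all others, so their values are the highest of many and cannot be set against those of the pairs of members. Over the 37 oocytes, with the mean of each batch taken off and 11803 genes compared, the pattern most like that of Nobox was that of Zfp296 (Pearson r 0.862, Spearman 0.83, 0.816 without the 2 farthest), then Atp6v1e1 (0.793). For Zfp296 it was 0.87 in batch A and 0.859 in batch B. Foxo3 was most like Jag1 (0.875, with 0.956 and 0.764 in batches A and B) and Wwc2 (0.87, with 0.931 and 0.803). Figla was most like Cenpk (0.797, with 0.92 and 0.57) and Bud31 (0.785, with 0.938 and 0.376). Lhx8 was most like Tcea1 (0.653, with 0.0865 and 0.739) and Leprot (0.647, with 0.515 and 0.661), and Taf4b like Cyp2f2 (0.66, with −0.138 and 0.766) and Ngly1 (0.614, with 0.249 and 0.664), though Cyp2f2 itself had a median of only 2.92 CPM. Tcea1 and Cyp2f2 did so in batch B only. These values include the stage difference and share the library and its depth. Sohlh2 and Tbpl2 were left out, with medians of 2.92 and 3.91 CPM, under a minimum of 10 CPM that was set for members but not for the genes compared.

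Several members have close relatives in the genome, of which some were more abundant per length and others less. Tbp, the general TATA-binding protein, had medians of 85.7 and 66.2 TPM at GV and MII of batch A and of 47.8 and 60.8 TPM at GV and MI of batch B, and Tbpl2 was below it in 37 of 37 oocytes. Taf4 had medians of 27.5, 30.4, 23.8 and 21.5 TPM in the same order of groups, and Taf4b was below it in 37 of 37 oocytes. Foxo1, another forkhead gene of the same branch, was below Foxo3 in 11 of 12 oocytes of batch A, with medians of 48.2 TPM at GV and 58.2 TPM at MII, and above it in 25 of 25 oocytes of batch B, with 64.2 TPM at GV and 68.4 TPM at MI. Foxo4 and Foxo6 were below Foxo3, and Lhx6 below Lhx8, in 37 of 37 oocytes. Tbpl2 was above Tbpl1 in 4 of 6 GV and 1 of 6 MII oocytes of batch A and in 9 of 10 GV and 10 of 15 MI oocytes of batch B. The order of Foxo1 and Foxo3 thus differed between the batches at the GV stage too, and its cause was not tested. Of the 8 relatives listed, 5 were tested in each batch and 0 were called in either. Of all genes, 8.47% were called in batch A and 0.121% in batch B. At an unadjusted p under 0.05 there were 2 of the 5 in batch A, beside 4441 of all 12929 genes, and 0 in batch B. The 2 were Tbpl1 and Foxo1, with a log2 fold change of 0.84 and 0.45 under TMM. Both also passed the adjusted p alone, as did 20.6% of all genes.

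Other parts of the transcription machinery were looked at beside the members. In batch A 8.47% of all genes were called. The calls were 0 of 3 TFIIA subunits, with which TBPL2 works, and 0 of 14 TAF subunits of TFIID. At an unadjusted p under 0.05 there were 1 and 2 of these, beside 4441 of all 12929 genes. Of 12 subunits of RNA polymerase II, 0 were called higher and 3 lower, namely Polr2i (log2 fold change −2.02), Polr2k (−1.31) and Polr2g (−1.12, but −0.91 on HTSeq counts, under 2-fold), and the median of the list was −0.30 beside 0.01 for all genes. Of 3 further factors used with members to drive oocyte-like growth in culture (Stat3, Dynll1 and Sub1), Dynll1 fell (−1.93, adjusted p = 9.2e-05), from 77.7 to 213 CPM at GV to 23.7 to 55.1 CPM at MII. In batch A, 6 of the 12 polymerase subunits and 1 of the 3 further factors also had an unadjusted p under 0.05. In batch B 0 of these genes were called, beside 0.121% of all genes. At an unadjusted p under 0.05 there were 1371 of all 12419 genes. Among them were 1 TFIIA subunit, 3 TAFs, 1 polymerase subunit and 2 of the 3 further factors.

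Of 12 oocyte genes that the factors are known to act on, 3 were called in batch A, beside 8.47% of all genes. Each of the 3 was lower at MII, the zona pellucida genes Zp1 (log2 fold change −1.39), Zp2 (−2.14) and Zp3 (−2.21), while the median of the list was −0.11. All 3 also passed the test of the difference between the stage effects (−1.42, −1.74 and −1.86, adjusted p at most 0.00193). In batch B 0 of the 12 were called, beside 0.121% of all genes. At an unadjusted p under 0.05 there were 4 of the 12, beside 1371 of all 12419 genes. Of 20 genes of the KIT, PI3K and FOXO3 pathway, 18 were tested in each batch. The ribosomal protein gene Rps6 (−1.27) was the 1 call at MII, beside a median of 0.20 for the list, and there were 0 calls at MI, with 0 at an unadjusted p under 0.05. Rps6 is not itself a signalling gene, and reads of such genes can be shared with pseudogene copies. Among the oocyte markers Ooep (−1.04, but under 2-fold on HTSeq counts with −0.99, in the fit of all 37 oocytes with stage and batch as terms with −0.98, and without GV oocyte 4 or 5 or MII oocyte 1 or 4, with −0.98 to −0.94) and Zp3 were called lower at MII, and 0 of the 8 were called at MI.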

How the data were processed

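Single-oocyte libraries were made with Smart-seq2. Per the labels, the authors trimmed reads with Trim Galore 0.6.4, aligned them with STAR 2.7.6a to mm10 with GENCODE annotation, and counted them. The deposited gene tables hold read counts from HTSeq 0.12.4 and expected counts from RSEM 1.3.1, and the deposited transcript table holds expected counts from RSEM, none of them normalised. Everything below was computed from these tables.

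Ensembl identifiers were matched to GENCODE M21 on the same assembly without their version, which worked for 54723 of 54844 gene entries and 138789 of 138927 transcript entries. The 92 spike-in entries were left out of library sizes and tests. RSEM expected counts were rounded, filtered with filterByExpr, scaled with TMM and tested with edgeR 4.0.16 (R 4.3.3) by the quasi-likelihood test with Benjamini-Hochberg adjustment over all features tested. MII was compared with GV in batch A and MI with GV in batch B, and the difference of both effects in a fit of all 37 oocytes with 4 groups. Transcript usage was tested with glmFit and diffSpliceDGE and called at an adjusted p under 0.05. TPM came from expected counts per transcript over annotated length. Tables were made with Python 3.11.15, numpy 2.4.6, pandas 2.3.3 and scipy 1.17.1, and plots with matplotlib 3.10.9. The fits were tested on simulated data.

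The alternatives were DESeq2 1.42.0, no filter, RLE or spike-in size factors, HTSeq counts, the adjusted p alone, all 37 oocytes with stage and batch as terms, the oocyte number as a block, and each oocyte left out in turn. A fit without 3 MI oocytes was chosen after seeing the data.

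The members and lists were chosen with earlier results of these data known. The lists are relatives of the members, TFIIA, TFIID and RNA polymerase II subunits, other factors of oocyte-like growth, oocyte genes downstream, the KIT, PI3K and FOXO3 pathway, and markers of oocytes and of granulosa and cumulus cells. Every member is named, of the other lists genes called in a batch (up to 6 for each list), and the 2 genes most alike to each member with a median of at least 10 CPM. Other genes of the lists, such as Tbp and Taf4, were named after their values were seen.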

Additional observations from a re-analysis of the deposited data

Results flagged for a closer look

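Some single oocytes lay far from the rest of their group by Dixon's ratio of the gap to the range. It was taken over 66 groups of 4 to 10 oocytes and met in 5, while chance alone gives about 1 in 20 groups. The full MI group of 15 oocytes was over that size and was not screened in this way. Lhx8 mRNA was high in GV oocyte 4 of batch B, at 88.4 CPM. The summed oocyte markers were high in MII oocyte 2, at 7792 CPM. The share of Nobox-203 was high in GV oocyte 1 of batch A, at 5.32%. The share of Figla-201 was low in MII oocyte 5, at 98.3%. The share of Foxo3-202 was high in GV oocyte 4 of batch B, at 0.93%.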

How the results depend on the processing

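Between GV and MII in batch A, 1095 genes were called (278 higher). The number was 1859 (895 higher) without the low-count filter, 653 with all 37 oocytes and stage and batch as terms, 2662 (1172 higher) at the adjusted p alone, 3919 (131 higher) with spike-in size factors, and 777 (101 higher) on HTSeq counts, and it ran from 842 to 1246 with each oocyte left out in turn (163 higher without MII oocyte 1). Members called were 1, but 3 at the adjusted p alone and 2, Nobox and Figla, with spike-in size factors, and 0 to 1 with an oocyte left out. The median log2 fold change of all genes was 0.27 without the filter and −0.72 with spike-in size factors.

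In batch B, where 15 genes were called, the number was 40 without the filter, 116 by DESeq2, 107 with stage and batch as terms, and 0 on HTSeq counts, with or without MI oocytes 4, 8 and 9. These 3 were set apart by their ratio of HTSeq to RSEM counts, and without them 36 were called on RSEM counts, a fit chosen after seeing the data. Leaving out each oocyte gave 0 to 82. Members called were 0 throughout. For the difference of the stage effects, 608 genes became 1500 without the filter, 247 with HTSeq counts and 357 when MII oocyte 1 was left out, and members called were 0 throughout. Transcripts called in batch B were 2 without the filter, and shares called were 3 without MI oocyte 15, against 0 each.

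The labels do not say whether oocytes of the same number belong together. Same-numbered ones had correlations of −0.391 to 0.355 in batch A and −0.199 to 0.136 in batch B. These were not set against oocytes of different numbers, so they cannot decide whether the numbers pair the oocytes. With the number as a replicate block, 886 genes were called in batch A and 0 in batch B, the log2 fold change of Tbpl2 in batch A turned to 0.12, and in batch B those of Nobox (−0.041), Zp1 (−0.063) and Polr2k (−0.033) turned. Foxo3 in batch A had an adjusted p of 0.117 there, and Figla was still called.

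Other directions that turned belonged to results that were not called, apart from Foxo3 at its adjusted p. In batch A, Lhx8 was at 0.062 on HTSeq counts and had a range of −0.14 to 0.0027 with oocytes left out, Tbpl2 had −0.45 to 0.23, and spike-in size factors gave Sohlh2 −0.036, Taf4b −0.66 and Foxo3 −0.17. In batch B, without MI oocytes 4, 8 and 9, Figla was at 0.053 on HTSeq counts and 0.029 on RSEM counts, and Polr2k at −0.060 and −0.061. With all oocytes Polr2k was at −0.096 on HTSeq counts, where Figla did not turn (−0.06). Leaving out an oocyte gave Figla −0.097 to 0.052, Nobox −0.062 to 0.14 and Polr2k −0.031 to 0.15. Of 36 levels per length, 4 moved by over 1 SD on HTSeq counts, to 69.4 for Figla at MI, 4.83 for Sohlh2 at GV of batch A, 108 for Lhx8 at MII and 0 for Gcm1 at MI. Within 1 SD, but by more than 1.5 times, and apart from Sohlh1 and Gcm1 near 0, Tbpl2 at GV of batch A moved from 5.26 to 10 and Sohlh2 at MI from 0.883 to 1.66. The cause of these changes was not tested.

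As limits, MI and MII oocytes differ in batch and in maturation in culture or in the animal, the animals of origin were not used, and relative levels do not give molecules per oocyte. The scaling by spike-in sequences was possible in batch A only, and protein was not measured.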
